A study of Gossypium barbadense and Gossypium hirsutum with 8 samples.

Results

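Of the 59006 genes in the deposited table, 46 stood higher in developing fibers of Gossypium barbadense than of Gossypium hirsutum at every sampled stage, and these 46 genes are described here. They were chosen on the measured values themselves. Each RPKM value (a read count divided by gene length and library size, computed by the authors) was divided by the summed RPKM of its library and multiplied by 300000. A gene was taken if this scaled value was at least 2 times as high in G. barbadense at each of the 4 stages, if it reached 5 RPKM in all 4 G. barbadense libraries, if it was above 0 in at least 1 G. hirsutum library, and if the lowest of its 8 RPKM values was below 100. The species difference of these genes is therefore given as a description, with no test.

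The libraries were made from total RNA of fibers of G. barbadense at 5, 10, 15 and 20 days post anthesis (DPA) and of G. hirsutum at the same 4 stages, 1 library for each species and stage. The last stage is 20 DPA in the sample descriptions and carries the number 25 in the titles. The labels name no cultivar, treatment or number of pooled plants. In bulk fiber RNA, a change in the number of cells and a change in RNA per cell cannot be told apart.

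A cotton fiber is a single outgrown cell of the seed coat. It first elongates, while its thin primary wall is loosened and extended under turgor, and later deposits a thick secondary wall of nearly pure cellulose. G. hirsutum is upland cotton, grown for yield, and G. barbadense is grown for its longer, finer and stronger fiber. Both are tetraploids that carry an A and a D subgenome, so that many genes occur as an A and a D copy. An identifier such as Gh_A08G0107 names subgenome A, chromosome A08 and a number on that chromosome, and Sca identifiers lie on unplaced scaffolds. The identifiers have the G. hirsutum form, and both species are listed under the same ones. The annotation behind them is not given in the sources used here, and its effect on the species ratio was not tested. A table of 74561 annotated G. barbadense genes held none of the identifiers (0 matches), so no gene name, function or sequence is attached to them here, and the fiber, secondary wall and other-tissue markers could not be looked up.

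The summed RPKM per library ranged from 258680 to 503585 in G. barbadense and from 138198 to 326872 in G. hirsutum, and it was higher in G. barbadense at each stage. The numbers of reads behind the libraries were estimated from the spacing of low values, at 0.975 to 1.16 relative to G. barbadense at 5 DPA. The estimate searched only close to equal size. It could not have found a large difference, so no likeness of depth is read from it. With these sizes taken as given, 8589 genes had low values that were whole multiples of their lowest value within 0.1 reads. In them 1 read was worth a median of 0.196 RPKM. A count of 0 reads allows up to 3 reads, or 0.588 RPKM at that median, which covers counting error only. The quartiles of 1 read were 0.13 and 0.32 RPKM, and only 2 of the 46 genes were among the 8589. The bound of 0.588 RPKM is therefore not set for the zeros of the 46 genes one by one. For some of them it may lie higher. Of the 184 G. hirsutum values of the 46 genes, 31 lay under 1 RPKM and so rest on few reads.

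The 46 genes were moderately expressed in G. barbadense and low in G. hirsutum. Their mean over the 4 stages had a median of 30.6 RPKM in G. barbadense fibers, against 4.67 RPKM in those of G. hirsutum. In G. barbadense 7 genes averaged 100 RPKM or more, and 17 averaged under 20 RPKM. Together they took 0.632%, 0.716%, 0.647% and 0.359% of the summed RPKM of the 4 G. barbadense libraries in order of age, against 0.112%, 0.175%, 0.0834% and 0.110% of that of the G. hirsutum libraries. In 33 of the 46 genes the lowest G. barbadense RPKM was above the highest G. hirsutum RPKM, and in the other 13 genes the species overlapped when all stages were pooled. The rule favours such separation, so that nothing is read from it.

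**Figure D1:**
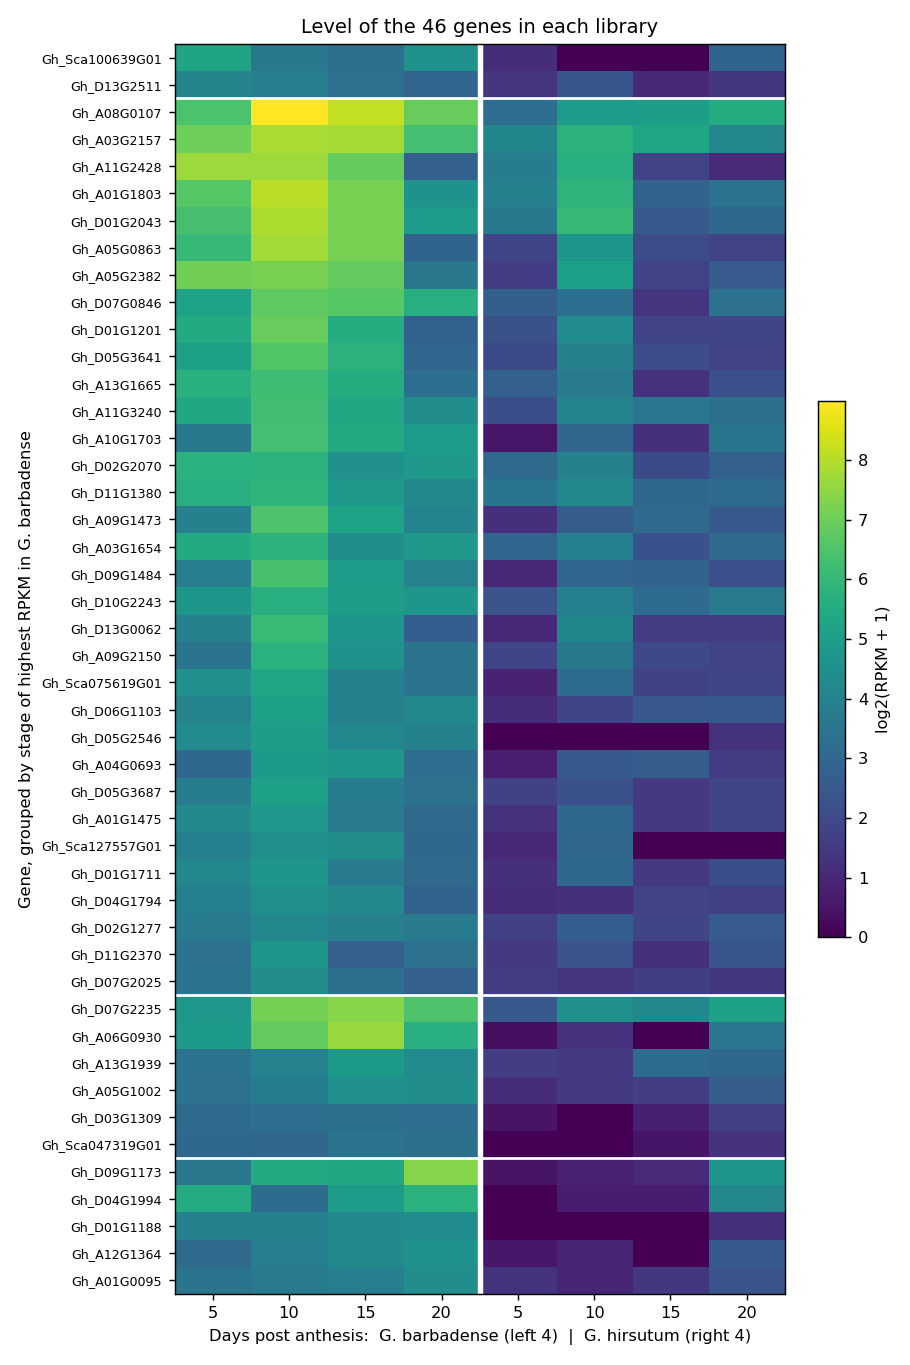
Level of each of the 46 genes as log2(RPKM + 1), colour scale, in the 4 G. barbadense libraries (left) and the 4 G. hirsutum libraries (right), with 1 library per column and white lines between groups of genes highest at 5, 10, 15 and 20 DPA in G. barbadense. Of the 46 genes, 33 were highest at 10 DPA in G. barbadense, and the darkest cells are the G. hirsutum values listed at 0.

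The most abundant of these genes was Gh_A08G0107. It stood at 85.6, 511, 286 and 118 RPKM at 5, 10, 15 and 20 DPA in G. barbadense fibers, against 8.64, 30.2, 31.5 and 46.9 RPKM in G. hirsutum. Its G. barbadense values had a sharp maximum at 10 DPA, whereas its highest G. hirsutum value was that at 20 DPA. Gh_A03G2157, the second by mean level, stood at 129, 231, 219 and 77.4 RPKM in G. barbadense fibers, against 16.7, 53.7, 38.9 and 16.8 RPKM in those of G. hirsutum. In RPKM as deposited both species showed the same outline for this gene, highest at 10 DPA and low again at 20 DPA. Every G. barbadense value exceeded every G. hirsutum value. As a share of the library the gene was highest at 15 DPA in G. barbadense and at 10 DPA in G. hirsutum.

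The size of the species ratio, taken between shares of the library, depended on the stage. Its median over the 46 genes was 6.02, 4.30, 6.27 and 3.25 in order of age. At 20 DPA 12 genes were 4-fold or more apart, against 32 at 15 DPA, 27 at 10 DPA and 31 at 5 DPA. For 27 of the 46 genes the lowest of the 4 ratios was that at 20 DPA, and for 10, 5 and 4 genes that at 10, 5 and 15 DPA. At 20 DPA 2 genes were 10-fold or more apart, 1 of them at 0 in G. hirsutum, against 19 at 15 DPA, of which 6 were at 0 and the highest defined ratio was 42.7. Over the 2882 genes with 5 RPKM or more in all 4 G. barbadense libraries the median ratio was 1.07, 0.884, 0.885 and 1.10 at the 4 stages. Large ratios were fewest at 20 DPA among the 2882 genes too: in order of age 253, 89, 201 and 63 of them were 4-fold or more apart, and 52, 25, 67 and 17 were 10-fold or more apart. The smaller number of large ratios at 20 DPA is thus shared with the background.

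**Figure D2:**
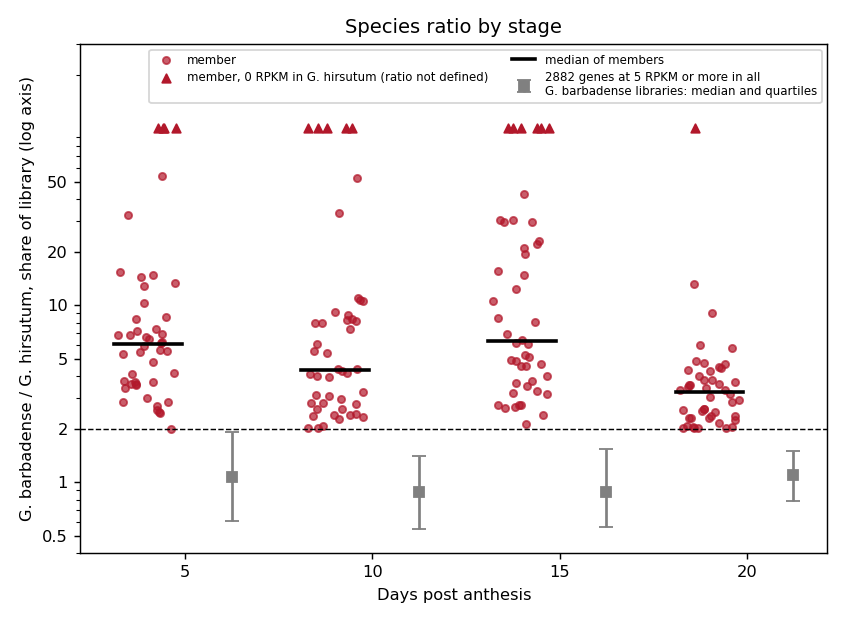
Ratio of G. barbadense to G. hirsutum share of the library (log axis) by stage in days post anthesis, with 1 point per gene, a black bar at the median of the 46 genes, triangles for genes at 0 RPKM in G. hirsutum, and a grey square with quartiles for the 2882 genes at 5 RPKM or more in all 4 G. barbadense libraries. The dashed line is the 2-fold limit of the rule, and the points lie closest to it at 20 DPA, where the median is 3.25.

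Few genes held a large ratio throughout. At every stage 14 of the 46 genes were at least 3-fold apart and 6 at least 4-fold apart, with a G. hirsutum value of 0 counted as apart. Among the 37 genes above 0 in all 4 G. hirsutum libraries, the lowest ratio was largest in Gh_D09G1173. It stood at 10.8, 44.2, 40.5 and 164 RPKM at 5, 10, 15 and 20 DPA in G. barbadense fibers, against 0.4, 0.86, 1.16 and 25.4 RPKM in those of G. hirsutum, with ratios of 14.4, 33.4, 23.2 and 5.96. Both species were highest at 20 DPA for this gene, and the G. hirsutum value at 20 DPA exceeded the G. barbadense value at 5 DPA. The next was Gh_A01G0095, which stood at 9.95, 12.1, 13.5 and 20.3 RPKM in G. barbadense fibers, against 1.47, 0.89, 1.75 and 4.01 RPKM in those of G. hirsutum. Its ratios lay between 3.62 and 8.79.

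The evenness of the ratio over the stages varied widely between the genes. Over the 37 genes with no 0, the highest ratio was a median of 3.29 times the lowest; 7 genes stayed within 2-fold and 10 varied 5-fold or more. The most even was Gh_D11G1380, at 49.4, 59.0, 28.5 and 17.7 RPKM in G. barbadense fibers, against 10.3, 16.8, 7.1 and 7.88 RPKM in those of G. hirsutum. Its ratios were 2.56, 2.27, 2.67 and 2.06, close to the limit of the rule at every stage. Gh_A03G1654 was next, with ratios of 3.59, 2.61, 3.66 and 3.46, from 44.0, 54.8, 21.3 and 28.6 RPKM in G. barbadense fibers, against 6.56, 13.6, 3.87 and 7.6 RPKM in those of G. hirsutum. In RPKM as deposited the 2 species were highest at 10 DPA for both genes. As shares of the library they were highest at 5 DPA.

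At the other end stood 2 genes of chromosome A05. Gh_A05G2382 was at 130.2, 141, 113 and 11.2 RPKM in G. barbadense fibers, against 2.14, 32.6, 2.48 and 5.04 RPKM in those of G. hirsutum. In RPKM as deposited the G. barbadense level was nearly flat to 15 DPA and then low, while G. hirsutum showed 1 high value, at 10 DPA. As a share of the library the G. barbadense level was lower at 10 than at 5 DPA. The ratio, taken between shares, went 32.5, 2.80, 30.4 and 2.04 over the stages. Gh_A05G0863 was at 63.9, 215, 141 and 6.5 RPKM in G. barbadense fibers, against 2.64, 25.3, 3.19 and 2.59 RPKM in those of G. hirsutum. Its ratios were 12.9, 5.50, 29.5 and 2.31, largest at 15 DPA.

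In G. hirsutum 9 of the 46 genes were listed at 0 in at least 1 library, 4 of them in 1 library, 3 in 2 and 2 in 3 libraries. The last were Gh_D05G2546 and Gh_D01G1188. Gh_D05G2546 stood at 19.4, 31.6, 17.1 and 14.6 RPKM in G. barbadense fibers and was listed at 0 at 5, 10 and 15 DPA and at 1.49 RPKM at 20 DPA in G. hirsutum. Gh_D01G1188 stood at 14.3, 14.5, 17.7 and 19.7 RPKM in G. barbadense fibers and was likewise listed at 0 at the first 3 stages, with 1.37 RPKM at 20 DPA, in G. hirsutum. For both genes the ratio could be formed at 20 DPA alone, where it was 9.01 and 13.3, the highest of the defined ratios of that stage. No fold is given against the values of 0. At 5, 10, 15 and 20 DPA 4, 5, 6 and 1 of the 46 genes were at 0 in G. hirsutum. Only Gh_Sca127557G01 was at 0 there at 20 DPA; it stood at 13.7, 21.9, 20.9 and 6.97 RPKM in G. barbadense fibers, against 1, 6.86, 0 and 0 RPKM in those of G. hirsutum. It was picked out after its values were seen, as the one exception.

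The rule asked for no course over development, but it limited the courses through the ratio at each stage and the minimum level. The comparisons with the 2882 genes are therefore not independent of it. As deposited, 33 of the 46 genes (71.7%) were highest at 10 DPA in G. barbadense, against 51.7% of the 2882 genes at 5 RPKM or more in all 4 G. barbadense libraries. Of the 46 genes, 24 (52.2%) had their highest G. hirsutum value at 10 DPA and 17 (37.0%) theirs at 20 DPA, against 54.8% and 23.0% of the 2882. The 2 species were highest at the same stage for 29 of the 46 genes (63.0%), 23 of them at 10 DPA, and for 49.5% of the 2882. The libraries of 10 DPA also had the highest summed RPKM of each species. Shares of the library moved the maximum of many genes: on that scale 18 of the 46 genes (39.1%) had their G. barbadense maximum at 5 DPA and 15 (32.6%) had it at 10 DPA, against 31.9% and 23.6% of the 2882. The G. hirsutum maximum lay at 10 DPA for 17 (37.0%) and at 20 DPA for 16 (34.8%), against 29.3% and 19.4%.

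The last step, between 15 and 20 DPA, was mostly down in G. barbadense and mostly up in G. hirsutum. In G. barbadense 36 of the 46 genes were lower at 20 than at 15 DPA (78.3%, against 62.5% of the 2882 genes), and in G. hirsutum 32 were higher at 20 than at 15 DPA (69.6%, against 46.3%). Both held at once for 22 of the 46 genes (47.8%) and for 21.6% of the 2882. As shares of the library, 31 of the 46 genes were lower in G. barbadense (67.4%, against 54.5% of the 2882), 28 were higher in G. hirsutum (60.9%, against 37.2%), and 14 were both (30.4%, against 13.7%). The median log2(RPKM + 1) difference of 20 minus 15 DPA over the 46 genes was -0.64 for G. barbadense as deposited and -0.43 as shares, against 0.54 and 0.33 for G. hirsutum. These changes are built from the same values as the ratios of the rule, so the excess over the 2882 genes is not independent of the rule. They have 1 library at each point and carry no test.

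**Figure D3:**
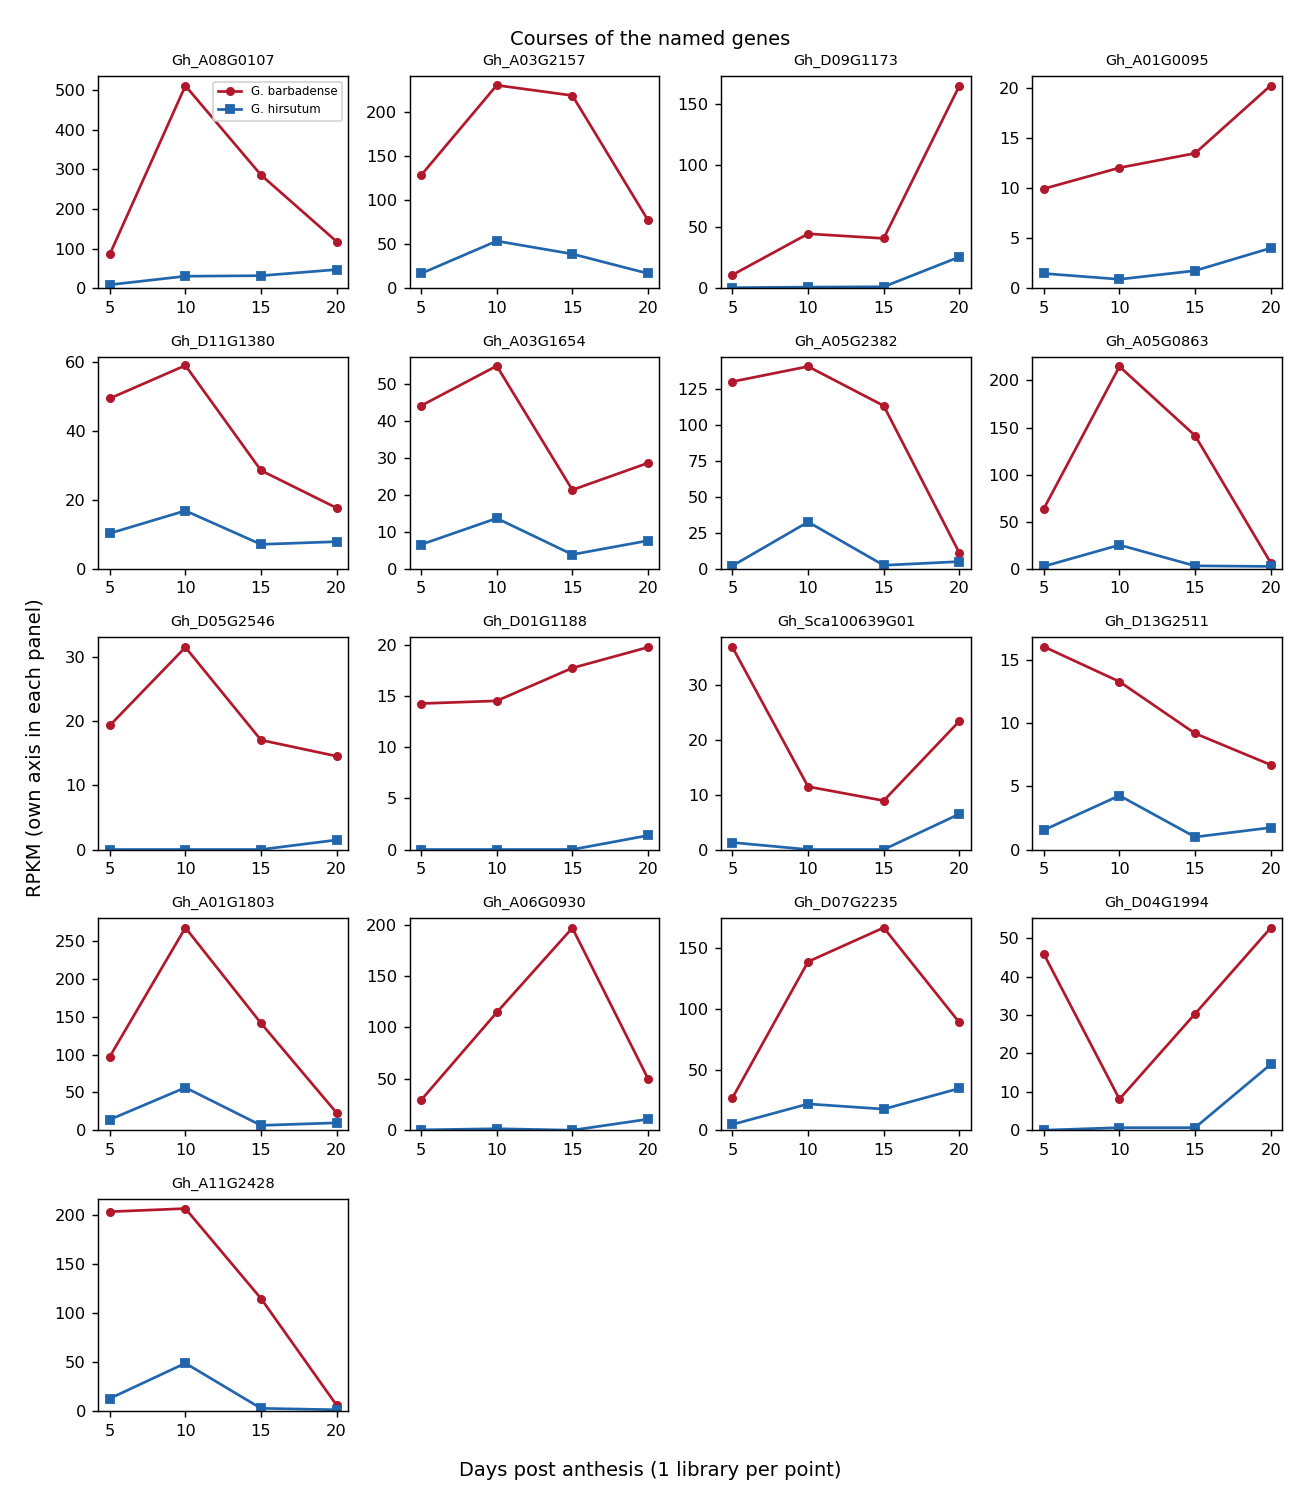
RPKM by days post anthesis for the 17 genes named for level, ratio, zeros, stage of maximum or change with age, with G. barbadense as red circles and G. hirsutum as blue squares, 1 library per point and an own axis in each panel. G. barbadense lies above G. hirsutum at each stage in every panel, as the rule requires, while the outlines differ: Gh_A08G0107 peaks at 511 RPKM at 10 DPA and Gh_D09G1173 at 164 RPKM at 20 DPA.

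By stage of the highest G. barbadense RPKM as deposited, the genes formed 4 groups of unequal size. Highest at 5 DPA were 2 genes, Gh_Sca100639G01 and Gh_D13G2511. Gh_Sca100639G01 stood at 36.9, 11.5, 8.92 and 23.4 RPKM in G. barbadense fibers, against 1.28, 0, 0 and 6.48 RPKM in those of G. hirsutum, high at the first and last stage in both species. Gh_D13G2511 stood at 16.02, 13.3, 9.17 and 6.69 RPKM in G. barbadense, lower at each later stage, and at 1.54, 4.26, 0.99 and 1.73 RPKM in G. hirsutum, where it was highest at 10 DPA.

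The group highest at 10 DPA held 33 genes, led by Gh_A08G0107 and by Gh_A01G1803. Gh_A01G1803 stood at 97.2, 268, 141 and 22.9 RPKM in G. barbadense fibers, against 14.0, 56.3, 6.37 and 9.71 RPKM in those of G. hirsutum. In both species the maximum was at 10 DPA. In RPKM as deposited, the G. barbadense level at 15 DPA was still above its 5 DPA level, while the G. hirsutum level was below it. The summed RPKM of the G. barbadense library was also higher at 15 DPA, at 380030 against 258680. As a share of the library the G. barbadense level at 15 DPA was not above that at 5 DPA.

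Of the 6 genes highest at 15 DPA, the 2 with the highest values were Gh_A06G0930 and Gh_D07G2235. Gh_A06G0930 stood at 29.3, 115, 197 and 50.2 RPKM in G. barbadense fibers, against 0.29, 1.41, 0 and 10.7 RPKM in those of G. hirsutum. Its ratio was 54.0 at 5 DPA and 52.7 at 10 DPA, the highest defined ratio of all 46 genes at either stage, and 4.31 at 20 DPA. Gh_D07G2235 stood at 26.7, 139, 167 and 88.9 RPKM in G. barbadense fibers, against 4.75, 21.7, 17.4 and 34.5 RPKM in those of G. hirsutum. It was thus highest at 15 DPA in G. barbadense and at 20 DPA in G. hirsutum.

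Highest at 20 DPA in G. barbadense were 5 genes, and all 5 were highest at 20 DPA in G. hirsutum too. They were led by Gh_D09G1173 and Gh_D04G1994. Gh_D04G1994 stood at 45.9, 8.09, 30.3 and 52.7 RPKM in G. barbadense, low at 10 DPA alone, and at 0, 0.66, 0.66 and 17.1 RPKM in G. hirsutum. Its ratio was 30.6 at 15 DPA and 2.83 at 20 DPA.

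Change with age was tested across all genes with species and stage as factors (limma on log2(RPKM + 1), two-sided, Benjamini-Hochberg adjustment over the 20356 genes whose mean over the 8 libraries reached 1 RPKM). All 46 genes passed that filter, which they had to, since the rule asks for 5 RPKM in 4 libraries. From 5 to 20 DPA 1 gene rose and 1 fell at an adjusted p under 0.05. Over all genes tested 3.38% rose and 2.6% fell, and over the 2882 genes 5.45% rose and 1.39% fell. The shares of the 46 genes were thus near the background, and they are no result about these genes. At an unadjusted p under 0.05, 5 of the 46 rose and 1 fell, against 498 and 168 of the 2882. The median change of the 46 genes was 0.28, against -0.49 over all genes tested and 0.36 over the 2882. As shares of the library the medians were -0.32 for the 46 genes and -0.90 for all genes tested, so the sign of the median depends on the scaling.

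The gene that rose was Gh_D09G1173, with 164 RPKM at 20 DPA against 10.8 RPKM at 5 DPA in G. barbadense and 25.4 RPKM at 20 DPA against 0.4 RPKM at 5 DPA in G. hirsutum. Its change of 20 minus 5 DPA was 4.02 on the log2(RPKM + 1) scale (SE 0.72, up in both species; limma, adjusted p = 0.00444), and 3.36 to 4.79 over 15 alternative settings. It missed the threshold in 4 of them, among them those without the G. barbadense library of 5 DPA (limma, adjusted p = 0.0643) and without the G. hirsutum library of 20 DPA (limma, adjusted p = 0.0553).

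The gene that fell was Gh_A11G2428, with 204, 207, 115 and 5.78 RPKM at 5, 10, 15 and 20 DPA in G. barbadense fibers, against 12.6, 48.7, 2.57 and 1.12 RPKM in those of G. hirsutum. In RPKM as deposited the G. barbadense level was nearly the same at 5 and 10 DPA and lower at 15 DPA. As a share of the library it was lower at each later stage. The G. hirsutum level was already low at 15 DPA, where the ratio between shares was 29.7. Its change of 20 minus 5 DPA was -3.80 (SE 0.82, down in both species; limma, adjusted p = 0.0143), and -4.79 to -2.81 over the alternatives. It missed the threshold in 5 of 15, among them those without the G. barbadense library of 5 DPA (limma, adjusted p = 0.151), without that of 20 DPA (limma, adjusted p = 0.31), and without the G. hirsutum library of 5 DPA (limma, adjusted p = 0.0563).

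These 2 genes were also the only ones of the 46 to pass the test over the 4 stages (limma F-test, adjusted p = 0.017 for Gh_D09G1173 and 0.0128 for Gh_A11G2428), against 7.62% of all genes tested and 8.4% of the 2882. A gene that missed the threshold may still change with stage. At an unadjusted p under 0.05 of the F-test there were 16 of the 46, against 783 of the 2882. Without the G. barbadense library of 5 DPA or that of 20 DPA 0 genes passed the F-test, and without the 15 DPA library of either species 7 did. No member passed in a step between neighbouring stages (limma). At an unadjusted p under 0.05, 14 of the 46 were higher from 5 to 10 DPA and 0 lower. Of the 2882 genes 818 were higher and 8 lower. The median change was 1.12 over the 46 genes, 0.69 over all genes tested and 1.06 over the 2882. From 10 to 15 DPA 0 were higher and 8 lower at that level, against 9 and 177 of the 2882. The medians were -0.72, -0.56 and -0.45 in the same order of sets. From 15 to 20 DPA 3 were higher and 4 lower, against 114 and 226 of the 2882, with medians of -0.07, -0.55 and -0.23. No trait of the 46 genes is read from these unadjusted counts. The percentages of all genes tested that passed the adjusted threshold in these steps were 0.0344% rising and 0.0147% falling from 5 to 10 DPA, 0% rising and 0.00491% falling from 10 to 15 DPA, and 1.18% rising and 0.432% falling from 15 to 20 DPA. Of the 2882 genes 0.0694% rose and 0% fell in the first step, 0% rose and 0.0347% fell in the second, and 0.867% rose and 0.798% fell in the last.

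**Figure D4:**
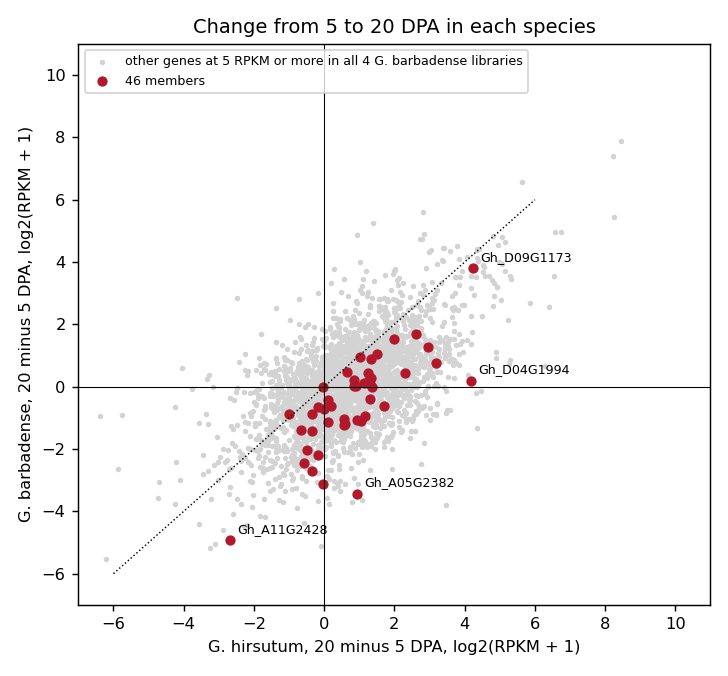
Change of 20 minus 5 DPA on the log2(RPKM + 1) scale in G. barbadense (vertical axis) and in G. hirsutum (horizontal axis), with the 46 genes in red, the other genes at 5 RPKM or more in all 4 G. barbadense libraries in grey, and a dotted line of equal change. Gh_D09G1173 lies up in both species and Gh_A11G2428 down in both, while Gh_A05G2382 lies down in G. barbadense and up in G. hirsutum.

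Some members had nearly the same level as another member in every library, within 1.5-fold or 1 RPKM. The pair with the highest mean was Gh_A01G1803, given above, and Gh_D01G2043. Gh_D01G2043 stood at 81.1, 236, 141 and 30.1 RPKM in G. barbadense fibers, against 11.5, 63.6, 4.78 and 6.94 RPKM in those of G. hirsutum, at most 1.40-fold from its partner. Both identifiers had by far their highest ratio at 15 DPA, 14.8 for Gh_A01G1803 and 19.6 for Gh_D01G2043.

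The second pair lay on 2 D chromosomes. Gh_D01G1201 stood at 44.6, 119.9, 47.0 and 5.94 RPKM in G. barbadense fibers, against 3.68, 19.8, 2.54 and 2.66 RPKM in those of G. hirsutum. Gh_D05G3641 stood at 33.4, 93.1, 54.5 and 6.57 RPKM in G. barbadense fibers, against 3.02, 14.3, 3.41 and 2.55 RPKM in those of G. hirsutum. Both had their maximum at 10 DPA in each species.

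The third pair was Gh_A03G1654 and Gh_D02G2070. Gh_D02G2070 stood at 52.2, 54.2, 22.3 and 28.1 RPKM in G. barbadense fibers, against 7.58, 14.6, 3.05 and 5.74 RPKM in those of G. hirsutum, with the same dip at 15 DPA in both species as its partner. The fourth pair was Gh_A09G1473, at 14.3, 87.7, 36.0 and 15.4 RPKM in G. barbadense fibers, against 1.36, 5.32, 7.57 and 4.88 RPKM in those of G. hirsutum, and Gh_D09G1484. Gh_D09G1484 stood at 13.6, 83.2, 30.3 and 14.7 RPKM in G. barbadense fibers, against 1.06, 6.65, 6.28 and 3.56 RPKM in those of G. hirsutum. Both had a single high G. barbadense value, at 10 DPA. In RPKM as deposited, Gh_D09G1484 was also highest at 10 DPA in G. hirsutum, at 6.65 RPKM against 1.06 RPKM at 5 DPA, with 6.28 RPKM at 15 DPA. Gh_A09G1473 was highest there at 15 DPA.

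**Figure D5:**
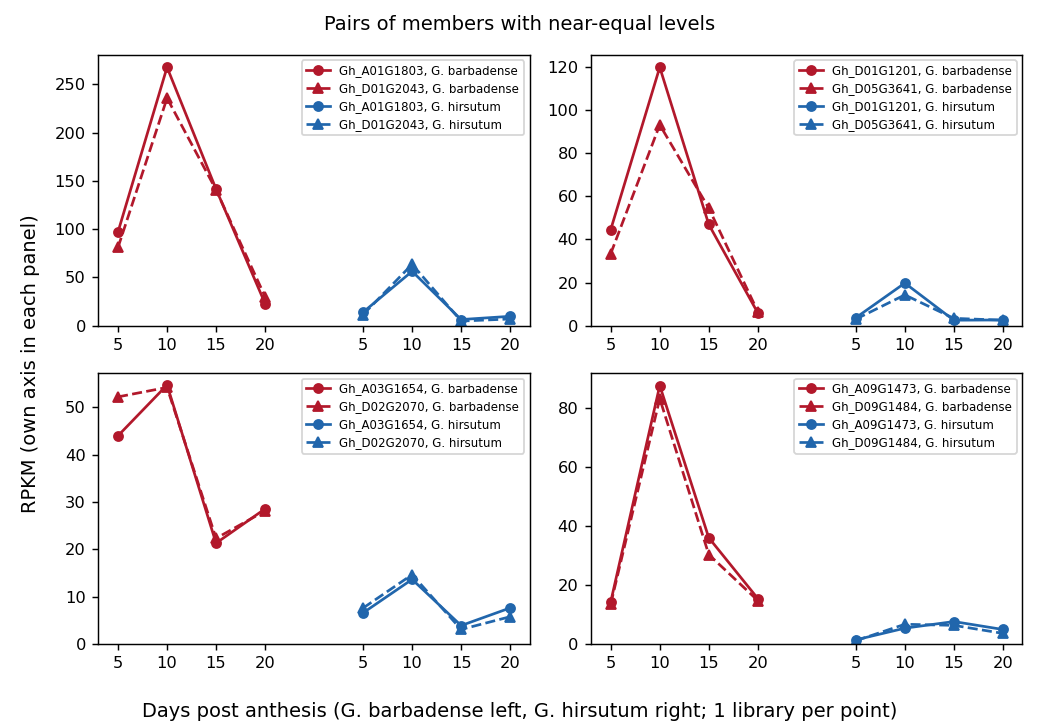
RPKM by days post anthesis for the 4 pairs of members with the highest mean among those with near-equal levels, G. barbadense in red on the left and G. hirsutum in blue on the right of each panel, with a solid line for the first and a dashed line for the second identifier and 1 library per point. The 2 lines of a pair run close together in both species, at most 1.40-fold apart for Gh_A01G1803 and Gh_D01G2043.

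Gh_A01G1475 and Gh_D01G1711, a lower pair chosen after its values were seen, had the same RPKM to 2 decimals in 3 libraries. Both stood at 12.49 and 7.63 RPKM in the G. barbadense libraries of 15 and 20 DPA, and at 1.84 RPKM in the G. hirsutum library of 15 DPA. How reads that fit several genes were counted is not given in the sources used here, so the levels of such pairs are uncertain one by one, and a pair is not 2 independent genes. An identifier of near-equal level on the same-numbered chromosome of the other subgenome was found for 8 of the 42 members on chromosomes (19.0%), and for 41.0% of the 2751 such genes among the 2882. Matches between unlike numbers, such as Gh_A03G1654 with Gh_D02G2070, are left out of both shares, so these are not counts of A and D copies.

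The 46 genes were spread over 22 of the 26 chromosomes, with at most 4 on any of them, on D01. The A chromosomes held 19 (41.3%), the D chromosomes 23 (50%) and unplaced scaffolds 4 (8.7%), against 47.3%, 48.1% and 4.55% of the 2882 genes. The nearest 2 members by number were Gh_D01G1188 and Gh_D01G1201, 13 numbers apart, so that none lay side by side. Genes at the next number were also compared. Of 27 neighbours with a mean of at least 1 RPKM, 9 (33.3%) were higher in G. barbadense at all 4 stages as a share of the library. This held for 11.6% of the neighbours of the 2882 genes. An excess of any size counted. Gh_A03G1655 and Gh_D02G2071, both among the 9, lie next to the near-equal members Gh_A03G1654 and Gh_D02G2070. The 9 are thus not independent, and no trait of position is read from them.

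Among those neighbours was Gh_D09G1172, next to Gh_D09G1173. Gh_D09G1172, Gh_A09G1166 and Gh_Sca222153G01 were the 3 genes that met the rest of the rule and were left out because their lowest value was not below 100 RPKM. Gh_D09G1172 stood at 3261, 7351, 5658 and 5718 RPKM in G. barbadense fibers, against 133, 370.1, 222 and 1563 RPKM in those of G. hirsutum. Like its neighbour it had its highest G. hirsutum value at 20 DPA, but in RPKM as deposited it was highest at 10 DPA in G. barbadense. As a share of the library it was highest at 20 DPA in G. barbadense too. The files do not say whether the 2 genes overlap or share reads. Another neighbour, picked out after its values were seen, was Gh_A04G0694, next to the member Gh_A04G0693. It stood at 9.78, 32.8, 15.7 and 3.74 RPKM in G. barbadense fibers and was listed at 0 at 5, 10 and 15 DPA and at 1.21 RPKM at 20 DPA in G. hirsutum.

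The limit of the rule cuts through a continuous range. Of 2818 genes that met every other condition, 46 had a lowest ratio of at least 2, 64 one between 1.5 and 2, 242 one between 1 and 1.5, and 2466 one below 1. Just inside were Gh_A09G2150, with a lowest ratio of 2.01 at 5 DPA, and Gh_D10G2243, with 2.02 at 20 DPA. Gh_A09G2150 stood at 10.1, 52.6, 23.2 and 9.99 RPKM in G. barbadense fibers, against 2.68, 11.6, 2.96 and 2.58 RPKM in those of G. hirsutum. Gh_D10G2243 stood at 26.1, 50.04, 31.9 and 25.9 RPKM in G. barbadense fibers, against 3.94, 13.8, 7.76 and 11.8 RPKM in those of G. hirsutum.

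Just outside were Gh_A10G0762, with a lowest ratio of 1.97 at 10 DPA, and Gh_A09G1681, with 1.94 at 5 DPA. Gh_A10G0762 stood at 54.9, 64.3, 33.2 and 24.0 RPKM in G. barbadense fibers, against 7.16, 21.3, 10.3 and 7.6 RPKM in those of G. hirsutum. Gh_A09G1681 stood at 76.1, 21.7, 47.2 and 213 RPKM in G. barbadense fibers, against 20.9, 6.51, 2.76 and 56.1 RPKM in those of G. hirsutum. The 20 DPA libraries set the size of the group more than any other stage: asked of the other 3 stages alone, the rule gave 806 genes, of which 530 were under 2-fold at 20 DPA and 232 failed there by level alone. The same rule with the species exchanged gave 83 genes higher in G. hirsutum.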

How the data were processed

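RNA of fibers was sequenced in 8 libraries, 1 for each species and stage. The authors deposited RPKM values with 2 decimals for 59006 genes; per the submitters' processing notes cutadapt, Bowtie2 and edgeR were used, whose versions and roles they do not give. Build, annotation and the handling of multiply mapped reads: not given in the sources used here. Columns were matched to samples by title. The members, lists and tests were chosen with earlier results of these data known. Members were named by classes of 2 identifiers each (level, lowest ratio, evenness of ratio, zeros, stage of maximum, change with age, near-equal pairs, limit of the rule), with exceptions marked in the text. RPKM values were tested as log2(RPKM + 1), which understates changes of low genes, with limma 3.58.1 in R 4.3.3 (factors for stage and species, leaving 3 degrees of freedom, with a mean-variance trend), after a check on simulated data. The stage factor puts the 2 libraries of a stage together by design. With 1 library per species and stage, a stage difference is judged against how it varies between the 2 species, not against replicates. Nothing says how many plants a library holds, so the p-values cover only how these libraries vary, part of which may be technical. Scaling, pseudocount, filter and left-out libraries were varied. Python 3.11.15, pandas 2.3.3 and numpy 2.4.6 did the rest.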

Additional observations from a re-analysis of the deposited data

Results flagged for a closer look

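Between 5 and 20 DPA 3 of the 46 genes went at least 2-fold in opposite directions in the 2 species, in RPKM as deposited; the difference was not tested, since each point is 1 library. These were 6.52% of the 46 genes, against 141 (4.89%) of the 2882 genes at 5 RPKM or more in all 4 G. barbadense libraries. Of any size, a lower level at 20 than at 5 DPA in G. barbadense with a higher one in G. hirsutum was found for 14 of the 46 genes (30.4%) and for 27.8% of the 2882. Both shares are near the background, and nothing particular to the 46 genes is read from them. Gh_A05G2382 stood at 0.0857 times its 5 DPA level at 20 DPA in G. barbadense and at 2.35 times in G. hirsutum. Gh_Sca075619G01 stood at 0.438 times in G. barbadense and at 3.35 times in G. hirsutum. Gh_D01G1711 stood at 0.449 times in G. barbadense and at 2.61 times in G. hirsutum. As shares of the library, in the same gene order, the G. barbadense values became 0.0684, 0.349 and 0.358, against G. hirsutum values of 1.09, 1.55 and 1.21, so that the direction stayed opposite and the G. hirsutum change was under 2-fold. On that scale 0 of the 46 genes went at least 2-fold in opposite directions, against 2.85% of the 2882.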

How the results depend on the processing

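The number of genes meeting the rule was 46. It was 121 with RPKM as deposited, 53 with median-of-ratios factors (42 of the 46 among them) and 42 after quantile normalization (41 of the 46). It was 110 at 1.5-fold, 14 at 3-fold, 120 with a minimum of 2 RPKM and 21 with a minimum of 10 RPKM in G. barbadense. Leaving out 5, 10, 15 or 20 DPA gave 124, 78, 59 or 806 genes. The 2 genes that rose or fell from 5 to 20 DPA became 3 with median-of-ratios factors and with a mean of at least 5 RPKM (Gh_D07G2235 was added in each), 0 with no filter, 0 with no species term, and 0 to 2 with 1 library left out (0 without the G. barbadense library of 5 DPA). The 2 genes of the F-test became 1 with median-of-ratios factors, 1 after quantile normalization, 0 with no filter, and 0 to 7 with 1 library left out. From 15 to 20 DPA 0 genes passed, 1 with median-of-ratios factors, and 0 to 1 with 1 library left out (1 without the G. hirsutum library of 15 DPA). Gh_D09G1173 and Gh_A11G2428 kept their direction in all 15 settings. The median ratio with RPKM as deposited was 11.3, 6.63 and 9.43 at 5, 10 and 15 DPA. Without the 100 most abundant genes the mean share of the 46 genes became 0.817% for G. barbadense, against 0.588% with them, and 0.174% for G. hirsutum, against 0.120%. Near-equal partners within a tighter fold, a setting chosen after seeing the data, were found for 2 members and for 16.1% of the 2751 background genes. The cause of these changes was not tested. No paired analysis was possible because the labels give each species and stage 1 library and no replicate number; stage is already a factor. With 1 library per point, a value under 1 RPKM rests on few reads.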
